A study of Marchantia polymorpha and Klebsormidium nitens with 125 samples.

Results

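The comparison described here sets cultures of the alga Klebsormidium nitens that had spent 5 days on 1% of the usual phosphate against cultures on full medium. It rests on 6 RNA-seq libraries, 3 starved and 3 control, chosen by their sample labels out of 125 libraries in the series, and it covers every gene in the Klebsormidium count table. Klebsormidium nitens (strain NIES-2285) is a filamentous streptophyte alga, that is, an alga of the lineage from which land plants arose. The cultures were grown for 7 days in axenic liquid Yamagami medium on a shaker, and the starved ones were then moved to the same medium with phosphate (KH2PO4) cut to 1% for 5 days. The control libraries are labelled as full Yamagami medium, and the labels do not give the day on which the controls were harvested, so starvation and culture age cannot be told apart in this comparison. The same table holds 33 further libraries, 3 in each of 11 groups, which are used where they bear on the phosphate genes: cultures starved for 5 days of nitrate (1% of the usual nitrate) or of sucrose (0%), and cultures labelled as resupplied with the nutrient for 6, 24 or 72 h after each starvation. The labels' resupply protocol names Marchantia only, so the medium given back to the alga is not known. Nothing in the labels tells whether the 3 libraries of a group are separate cultures, and the p-values therefore reflect only how these libraries scatter, which may be technical.

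Phosphate is a building block of nucleic acids, membrane phospholipids and ATP. In land plants and green algae, cells short of it raise high-affinity phosphate transporters, secreted phosphatases and nucleases that free phosphate from organic compounds, and enzymes that replace phospholipids with sulfolipids and galactolipids. In land plants this programme is driven largely by MYB-type PHR transcription factors, which SPX proteins hold back while phosphate is plentiful. No table used here pairs the Klebsormidium gene IDs with names, so none of the genes below can be assigned to these functions, and they are described by their behaviour. For the same reason no sequence is shown, and since gene lengths are not known, levels are compared between samples and not between genes.

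The table lists 16122 genes, of which 12176 had enough counts to be tested. Total counts were 21706038 to 33047350 in the control libraries and 26829362 to 28406750 in the starved ones. No 2 libraries held identical values, and within both groups libraries correlated at 0.984 or more, against at most 0.971 between the groups (Pearson's r of log2 CPM over the genes tested, across genes, which are not independent replicates). Levels are given in CPM, each gene's count relative to its library's total, scaled between libraries by the TMM method. A gene is said to have risen or fallen only at a Benjamini-Hochberg adjusted p under 0.05 in edgeR's two-sided quasi-likelihood test, fitted over all 39 Klebsormidium libraries and adjusted over all genes tested.

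Between phosphate-starved and control cultures a large share of the transcriptome differed by a small amount and a few genes by a very large one. Of the 12176 genes, 7107 (58.4%) differed between starved and control cultures in edgeR's test, 3894 (32%) of them higher and 3213 (26.4%) lower under starvation. Which direction held more genes depended on the scaling, with 3557 higher and 3595 lower under DESeq2 and 4553 and 2665 under upper-quartile scaling. Most of these differences were modest: 2143 of the raised and 2053 of the lowered genes changed by less than 1.5-fold. A change of at least 2-fold was found for 1254 genes (10.3%), with 707 (5.81%) raised and 547 (4.49%) lowered, and a change of 8-fold or more for 31 raised and 27 lowered genes. The median log2 fold change over all genes tested was 0.03.

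The direction of change differed with the level of expression. Among the 2526 genes with a mean above 100 CPM over the 39 libraries, 301 rose and 1212 fell. Among the 7786 genes between 10 and 100 CPM it was the reverse, with 3168 raised and 1543 lowered. Lower counts outnumbered higher ones above 100 CPM under each scaling tried, at 1345 against 256 with DESeq2 and 1006 against 418 with upper-quartile scaling, and the 10 to 100 CPM class kept its excess of raised genes under both, at 2891 against 1769 and 3673 against 1225. These shifts were small, with a median log2 fold change of -0.38 for the lowered genes above 100 CPM and 0.50 for the raised genes between 10 and 100 CPM. Below 1 CPM, 29 genes rose and 171 fell of 680 tested, 168 of the fallen ones by at least 2-fold. The filter keeps a gene with enough counts in as few libraries as 1 group holds. A gene this scarce may have been tested only because it was high in the control, which favours a fall, or in the starved group, which favours a rise. The split below 1 CPM is therefore a description only.

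**Figure D1:**
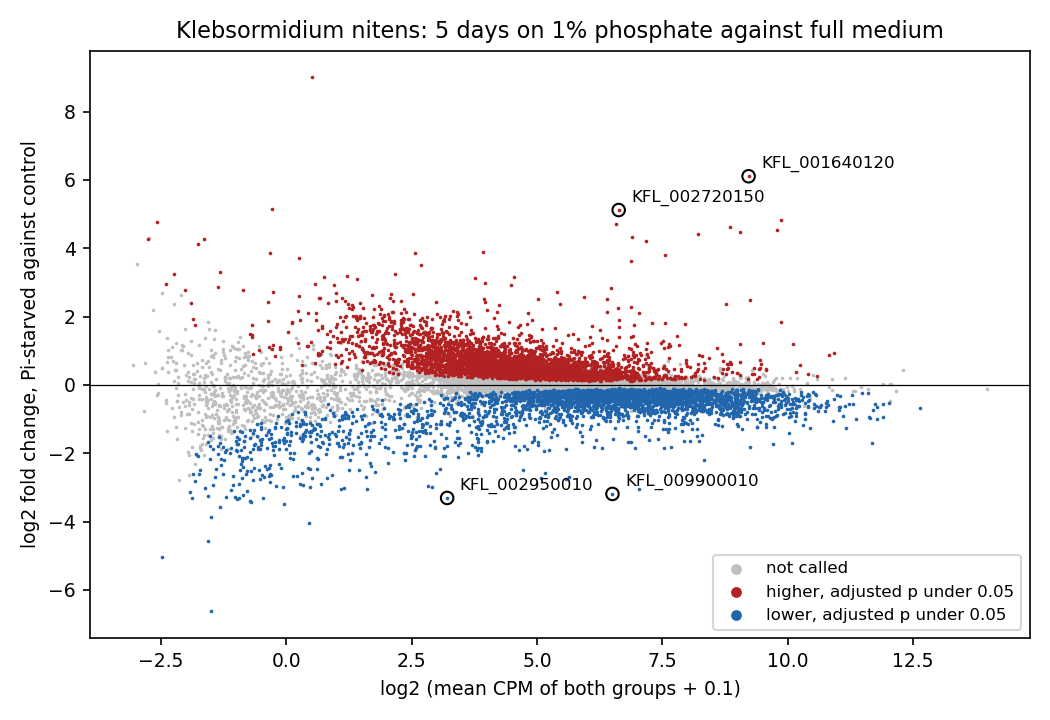
Each point is 1 of 12176 genes, with its log2 fold change (phosphate-starved against control) on the vertical axis and the log2 of its mean CPM over both groups, plus a pseudocount of 0.1, on the horizontal axis. The points above 100 CPM that were called lie mostly below 0, while a sparse set of abundant genes, with the circled KFL_001640120 highest among those of at least 10 CPM, stands 3 log2 units or more above 0.

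A group of 17 genes rose at least 8-fold and averaged 10 CPM or more in the starved cultures. The smallest rise inside this group was 8.82-fold and the largest outside it 7.99-fold among genes of that level. The scaled sum of these 17 genes was 0.0365%, 0.0303% and 0.0397% in the 3 control libraries. In the 3 starved libraries it was 0.997%, 1.05% and 0.562%. The scaled sum adds TMM-scaled CPM and is not a share of counts. All genes tested summed to a mean of 131% in control and 115% in starved cultures. Every one of the 17 was higher in all starved than in all control libraries (libraries did not overlap for 59.6% of all genes tested), which their choice on these same libraries favours. A further 14 genes rose at least 8-fold but stayed under 10 CPM in the starved cultures.

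KFL_001640120 showed the largest rise among genes of at least 10 CPM. Its level was 15.9, 14.8 and 20.5 CPM in the 3 control libraries and 1444, 1579 and 500.5 CPM in the 3 starved libraries. The lowest starved library thus stood far above the highest control library, although it held well below the level of the other starved libraries. The log2 fold change was 6.11 ± 0.36 (SE), a 69.0-fold rise, with an edgeR adjusted p of 2.99e-14, which draws on the spread in all 39 libraries. Fitted on the starved and control libraries alone, it was 6.09 ± 0.44 (SE), with an edgeR adjusted p of 6.29e-05.

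KFL_002720150 was next, with 5.90, 5.73 and 4.88 CPM in the control and 219, 248 and 110.0 CPM in the starved libraries. The groups again lay well apart, and the same starved library was again the lowest. Its log2 fold change was 5.12 ± 0.28 (SE), or 34.7-fold, with an edgeR adjusted p of 1.06e-14.

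The gene that reached the highest level of the 17, 3rd in rank by fold change, went from 67.6, 55.7 and 68.7 CPM in the control to 2182, 2296 and 946 CPM in the starved libraries. It rose 28.2-fold (log2 fold change 4.82 ± 0.38, SE; edgeR adjusted p = 9.47e-12). The gene ninth in rank carries the next ID number to it and rose 20.1-fold, from a control mean of 11.2 CPM to 284, 277 and 119 CPM in the starved libraries. These were the only consecutive IDs among the 17.

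The 3 starved libraries did not respond equally in this group. The median rise of the 17 genes over the control mean was 20.1-fold and 21.8-fold in 2 of the starved libraries and 12.2-fold in the other. That library was the lowest of the 3 for 14 of the 17 genes and the highest for the remaining 3, which ranked 8th, 11th and 12th. In the 11th gene it carried nearly the whole rise, at 77.7 CPM against 4.30 and 2.35 CPM in the other starved libraries and 2.23, 1.81 and 1.61 CPM in the control. The weaker response was not seen across the remaining 690 genes raised at least 2-fold, whose median rise was 2.71-fold in this library and 2.48-fold and 2.26-fold in the others. Without this library 16 genes met the 8-fold and 10 CPM bounds.

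**Figure D2:**
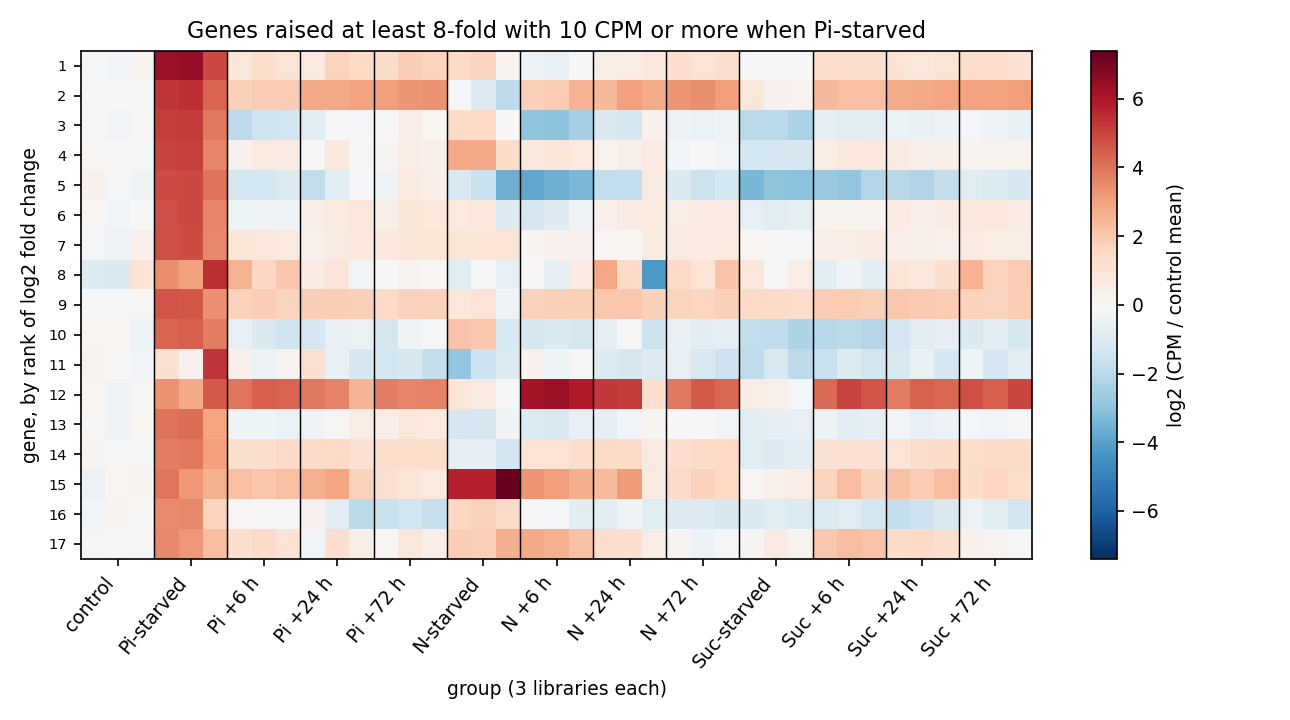
Rows are the 17 genes raised at least 8-fold with at least 10 CPM under phosphate starvation, ordered by fold change, and columns are the 39 libraries in their 13 groups. The colour gives the log2 of CPM over the control mean: the third phosphate-starved column is paler than the others for 14 genes and darker for the 8th, 11th and 12th, the 12th gene is red in every resupplied group, and the 15th gene is darkest in the nitrate-starved group.

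All but 1 of these genes were higher under phosphate starvation than under either other starvation, by margins that varied widely. In the direct test against nitrate-starved cultures, which uses no control library, 16 of the 17 genes were higher in the phosphate-starved cultures (36.7% of all genes tested were), with log2 differences from 0.93, for the 17th gene, to 6.43. Against sucrose-starved cultures all 17 were higher (34% of all genes tested), with log2 differences of 2.73 to 7.79. These 2 tests share with the comparison that chose the genes the phosphate-starved libraries, in which they are high by choice. The scaled sum of the 17 genes was 0.0656% ± 0.0118 (SD, n = 3) in nitrate-starved and 0.0242% ± 0.00179 (SD, n = 3) in sucrose-starved cultures, against 0.87% ± 0.268 (SD, n = 3) in phosphate-starved ones. All genes tested summed to 115%, 99.2% and 115% in these groups. Without the weakest starved library the phosphate-starved sum would be that of the other 2 libraries, 0.997% and 1.05%.

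The exception was higher under nitrate starvation. The gene 15th in rank stood at 1.04 CPM in the control, 11.6 CPM in phosphate-starved and 105 CPM in nitrate-starved cultures, a log2 difference of -3.16 between the starvations that passed edgeR's test (adjusted p = 4.18e-08). In sucrose-starved cultures it stood at 1.35 CPM. Its highest group mean was thus that of the nitrate-starved cultures.

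Over the whole transcriptome 8104 genes (66.6%) differed between phosphate-starved and nitrate-starved cultures and 7739 (63.6%) between phosphate-starved and sucrose-starved cultures. A set of 1379 genes (11.3%) was higher in phosphate-starved cultures than in control, nitrate-starved and sucrose-starved cultures alike, and 1157 genes (9.5%) were lower than in all of these. Of the 707 genes raised at least 2-fold over the control, 378 belonged to the first set. The other 329 were not higher than in both other starvations: 147 of them were higher than in nitrate-starved and 38 higher than in sucrose-starved cultures. For these 329 genes the median log2 difference was 0.35 against nitrate-starved and -0.0020 against sucrose-starved cultures.

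All but 1 of the strongly raised genes fell within 6 h of phosphate resupply. The direct test of 6 h of resupply against starvation found 7863 genes changed (64.6%), and 16 of the 17 were lower (32.2% of all genes tested were), with a median log2 change of -3.66. That test uses the starved libraries in which the 17 were chosen as high, so the count is a description only. In the 6 h libraries, which had no part in that choice, the scaled sum of the 17 genes was 0.0497% ± 0.00243 (SD, n = 3), where all genes tested summed to 93.4%. KFL_001640120 stood at 30.1, 43.0 and 34.7 CPM after 6 h, a log2 change of -5.03 ± 0.33 (SE) from the starved level (edgeR adjusted p = 2.89e-14). At 6 h 6 of the 17 group means lay within 2-fold of the control mean, at 24 h 11 and at 72 h 10.

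The exception was the 12th gene, which did not fall on resupply. It averaged 0.731 CPM in the control, stood at 8.31, 5.79 and 18.8 CPM in the starved libraries, and averaged 15.5 CPM at 6 h and 10.6 CPM at 72 h (6 h against starved: log2 0.50, edgeR adjusted p = 0.362). It was as low in nitrate-starved and sucrose-starved cultures as in the control, at 1.12 and 0.932 CPM, and reached 57.4 and 21.0 CPM at 6 h after nitrate and sucrose were given back.

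KFL_002720150 combined both patterns. It dropped to 18.7, 20.8 and 20.6 CPM at 6 h, a log2 change of -3.26 ± 0.24 (SE; edgeR adjusted p = 4.15e-13), and then climbed to 48.0, 53.5 and 54.8 CPM at 72 h. The climb from 6 h to 72 h passed edgeR's test (log2 1.38 ± 0.23, SE; adjusted p = 2.27e-05). At 72 h the gene was also at 53.4 ± 6.04 CPM (SD, n = 3) after nitrate and 45.5 ± 2.51 CPM (SD, n = 3) after sucrose resupply, while nitrate-starved and sucrose-starved cultures held 3.02 ± 1.79 and 7.77 ± 1.95 CPM (SD, n = 3). Its level after 72 h of any resupply was therefore several-fold above the control mean of 5.50 CPM.

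**Figure D3:**
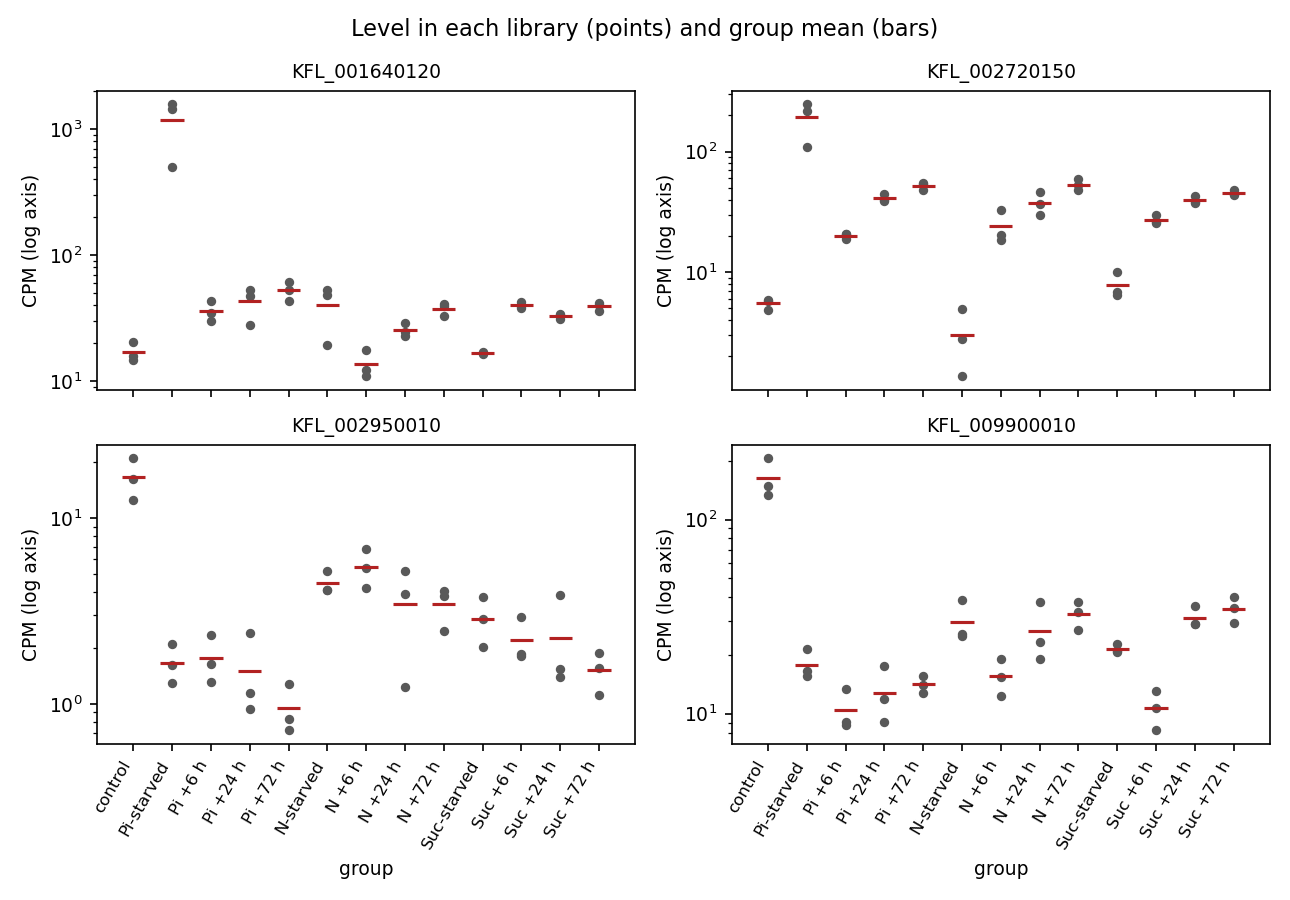
Points are the CPM of the 4 genes with the largest rises and falls in each of 39 libraries on a log axis, and bars are group means of 3 libraries. KFL_001640120 and KFL_002720150 peak in the phosphate-starved group, and KFL_002950010 and KFL_009900010 are highest in the control group and low in each starved and resupplied group.

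The wider set of raised genes behaved differently from the 17. The 690 other genes raised at least 2-fold had a median log2 level over the control of 1.30 in starved cultures, 1.87 at 6 h, 1.72 at 24 h and 1.77 at 72 h of phosphate resupply. In the direct test of 6 h against starvation 423 of them rose further (32.4% of all genes tested rose) and 109 fell. At 72 h 619 of the 690 were higher than in the control (41.1% of all genes tested were), a test that shares the control libraries with the comparison that chose them. The medians over the control share these libraries too. From 6 h to 72 h, a test that shares no library with it and called 47.7% of all genes tested, 104 of the 690 (15.1%) rose and 180 (26.1%) fell, where 24.7% of all genes rose and 22.9% fell.

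The same genes were high in cultures resupplied with nitrate or sucrose and less so in cultures starved of them. The median log2 level of the 690 over the control was 0.42 in nitrate-starved and 0.83 in sucrose-starved cultures, and 1.98 and 1.79 after 6 h of nitrate and sucrose resupply. The 690 were chosen as low in these control libraries, which favours medians above 0 in any other group. The tests of 6 h of resupply against starvation of the same nutrient use no phosphate-starved and no control library, and they called 75.9% of all genes tested for nitrate and 61.5% for sucrose. Of the 707 genes at least 2-fold higher in phosphate-starved than in control cultures, 578 (81.8%) rose in the nitrate test, in which 38.5% of all genes tested rose, and 497 (70.3%) rose in the sucrose test, in which 31% rose. These make up 12.3% of the genes that rose with nitrate and 13.2% of those that rose with sucrose. Of the 17 strongly raised genes, 4 (23.5%) rose and 9 (52.9%) fell with nitrate, where 37.4% of all genes tested fell. With sucrose 11 (64.7%) rose and 0 fell, where 30.5% of all genes tested fell.

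**Figure D4:**
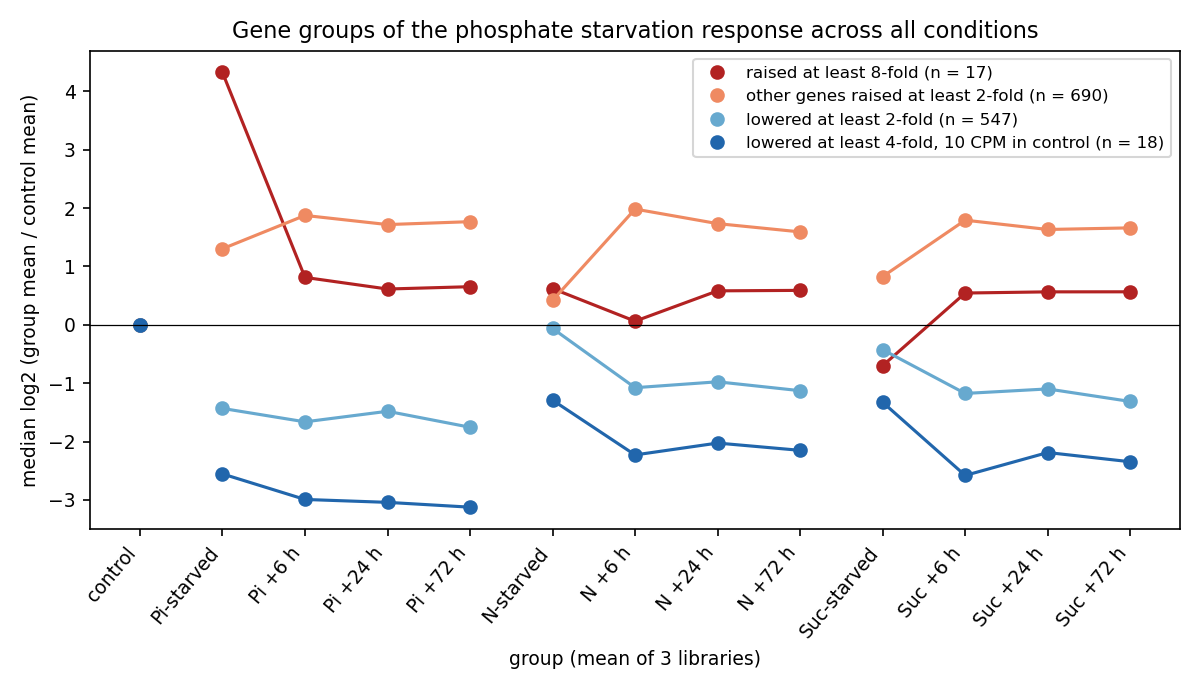
Each point is the median, over the genes of a group, of log2 group mean over control mean, for the 13 groups. The line of the 17 strongly raised genes peaks at 4.32 in phosphate-starved cultures and drops to 0.81 at 6 h, whereas that of the 690 other raised genes goes from 1.30 to 1.87 and stays there, and both lines of lowered genes stay below 0 after resupply.

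On the lowered side, 18 genes fell at least 4-fold from a control mean of at least 10 CPM. The smallest fall inside this group was 4.17-fold and the largest outside it 3.97-fold among genes of that level. At any level 125 genes fell at least 4-fold. Genes named by ID do not overlap between the groups by the rule that chose them (59.6% of all genes tested did not overlap). Among the 18, KFL_002950010 fell most, from 12.5, 16.3 and 21.0 CPM in the control to 2.09, 1.30 and 1.62 CPM in the starved libraries. This was a 9.90-fold fall (log2 fold change -3.31 ± 0.40, SE; edgeR adjusted p = 4.68e-08).

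KFL_009900010 fell from 134, 150 and 207 CPM to 16.6, 15.6 and 21.6 CPM. All starved libraries lay far below all control libraries, with a 9.12-fold fall (log2 fold change -3.19 ± 0.24, SE; edgeR adjusted p = 5.99e-12). The most abundant gene of the 18, 13th in rank, fell 4.57-fold, from 501, 539 and 551 CPM to 141, 127 and 80.7 CPM. The 18 genes hold 2 pairs with consecutive IDs.

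Several of the lowered genes were also low in the other starvations. KFL_009900010 stood at 29.7 ± 7.62 CPM in nitrate-starved and 21.6 ± 1.24 CPM in sucrose-starved cultures (SD, n = 3), both far below the control. It was lower in phosphate-starved than nitrate-starved cultures (log2 -0.73 ± 0.24, SE; edgeR adjusted p = 0.0077), and the difference from sucrose-starved cultures did not pass the test (log2 -0.27 ± 0.24, SE; adjusted p = 0.334). KFL_002950010 gave the same pattern, with log2 differences of -1.41 ± 0.40 (SE; adjusted p = 0.00289) from nitrate-starved and -0.78 ± 0.41 (SE; adjusted p = 0.102) from sucrose-starved cultures. Of the 18 genes, 13 were lower than in nitrate-starved cultures (29.9% of all genes tested were) and 11 lower than in sucrose-starved cultures (29.6%). The 10 that were lower than in both were thus lower than in control, nitrate-starved and sucrose-starved cultures alike (9.5% of all genes tested were). These tests use the phosphate-starved libraries in which the 18 were chosen as low, so the counts are a description only. The 18 were likewise chosen as high in the control, which favours a lower level in any other group. Nitrate-starved and sucrose-starved cultures were not tested against the control.

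All but 1 of the 18 fallen genes were still low after 72 h of resupply. The median log2 level of the 18 over the control was -2.55 in starved cultures, -2.99 at 6 h, -3.04 at 24 h and -3.12 at 72 h of resupply. At 72 h 17 of the 18 were still lower than in the control (34.5% of all genes tested were). That test and the medians use the control libraries in which the 18 were chosen as high, so both are a description only. KFL_009900010 stood at 12.8, 14.1 and 15.7 CPM. The exception was the 6th gene, which went from a control mean of 83.0 CPM to 12.3 CPM when starved and 57.3 CPM at 72 h (log2 -0.53 against the control, edgeR adjusted p = 0.0629).

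The 547 genes lowered at least 2-fold also stayed below the control after resupply. Their median log2 level over the control was -1.43 when starved, -1.66 at 6 h, -1.48 at 24 h and -1.75 at 72 h. In nitrate-starved and sucrose-starved cultures it was -0.06 and -0.43, nearer to the control than the medians of the 18 genes, -1.29 and -1.33. All these medians use the control libraries in which the genes were chosen as high, so they are a description only. Of the 547 genes, 168 averaged under 1 CPM over the 39 libraries. In the tests that share no library with this comparison, 329 of the 547 (60.1%) fell at 6 h of nitrate resupply, where 37.4% of all genes tested fell, and 295 (53.9%) fell at 6 h of sucrose resupply, where 30.5% fell. These are 7.23% and 7.93% of the genes that fell in the respective test.

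The control libraries also differed among themselves in the lowered genes. A set of 299 genes was lowered at least 2-fold and lower than in the nitrate-starved and sucrose-starved cultures too, and control library 3 was the highest of the 3 for 258 of them, with a median of 0.42 log2 units above the control mean. Over all 12176 genes tested that library was the highest for 4456. The 299 were chosen as low against these control libraries, which favours genes in which 1 of them is high. Many of the 299 genes are scarce, with 66 under 1 CPM and 125 between 1 and 10 CPM on average over the 39 libraries. Without control library 3 the genes lower than in all 3 other groups numbered 953 in place of 1157. Control library 1 was the lowest for 16 of the 18 strongly lowered genes (3559 of all 12176 genes tested), and without it 28 genes met the 4-fold and 10 CPM bounds.

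Across the 39 libraries, the phosphate-starved cultures lay between the control and the resupplied cultures. On the first principal component, which held 47.1% of the variance, control libraries had scores of -79.9 to -68.1, phosphate-starved libraries -29.7 to -23.8 and the 27 resupplied libraries 13.1 to 34.8. Nitrate-starved libraries were at -87.2 to -77.9 and sucrose-starved ones at -46.6 to -39.8, so phosphate-starved libraries were the starved ones nearest to the resupplied. On the second component (16.5%) phosphate-starved libraries (-39.4 to -33.9) lay within the range of the control (-39.7 to -20.2), away from the nitrate-starved (23.5 to 24.5) and sucrose-starved libraries (38.4 to 44.1). The 72 h resupplied cultures differed from the control at 9202 genes (75.6%), of which 3213 (26.4%) by at least 2-fold, in edgeR's test.

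**Figure D5:**
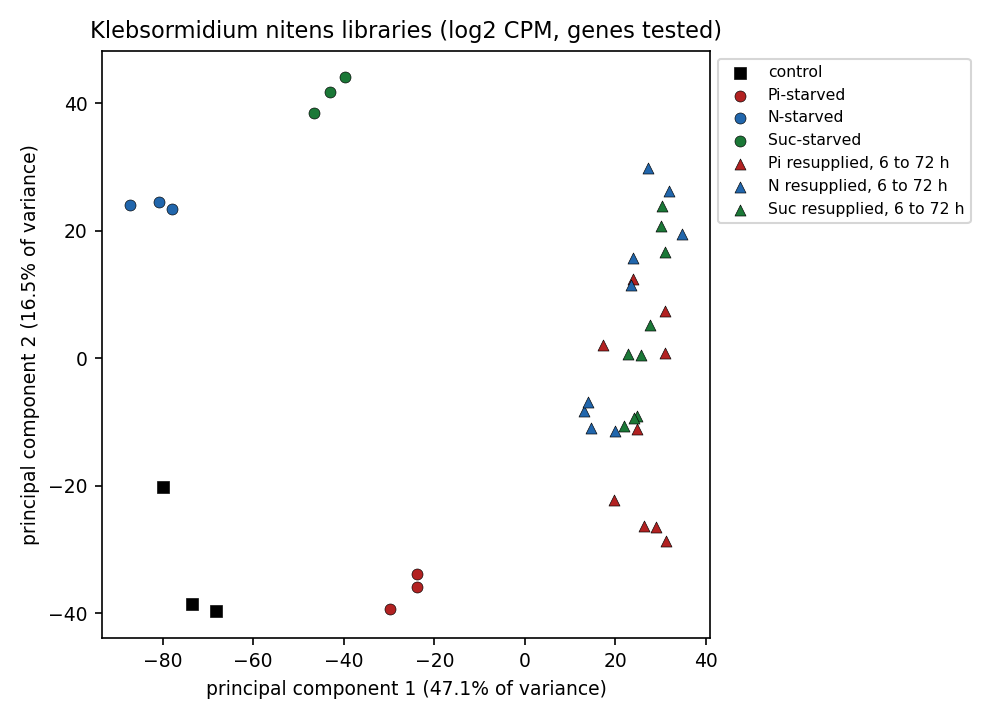
Each symbol is 1 of the 39 Klebsormidium libraries placed by its scores on principal components 1 and 2 of log2 CPM over the genes tested. The phosphate-starved libraries (red circles) share the vertical range of the control (black squares) and lie between the control and the resupplied libraries (triangles) on the horizontal axis.

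Some genes were counted in 1 of the groups and not in the other. A total of 317 genes had 0 counts in all control libraries and at least 1 count in the starved ones, but 5 of them reached 10 counts over the starved group. The clearest case had 0 counts in each control library and 70, 102 and 22 counts in the starved libraries (edgeR adjusted p = 3.00e-05). Against a floor of 3 counts over the control group, this was at least 60.1-fold higher by raw library totals. That bound is not TMM-scaled and would be lower on the CPM scale used above. The gene had 11 counts over the 3 nitrate-starved libraries, 0 in the sucrose-starved ones and 0 at 6 and 24 h of phosphate resupply. In the other direction 399 genes had 0 counts in all starved libraries, 15 of them with 10 or more counts over the control group and at most 30. These floors cover counting error only.

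Genes with neighbouring ID numbers changed together more often than their share of all genes. Of the tested genes with consecutive IDs there were 9789 pairs, and both genes were raised at least 2-fold in 73 pairs and lowered at least 2-fold in 54. The neighbour of a raised gene was itself raised in 12.8% of cases, where 5.81% of all genes tested were, and the neighbour of a lowered gene was lowered in 14.0%, where 4.49% were. No run exceeded 3 genes, with 4 such runs raised and 11 lowered. Pairs join IDs that follow each other in order and share their first 5 digits, which were taken as the scaffold number. Apart from this the positions of these genes in the genome were not used here, and whether neighbouring genes overlap was not tested.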

How the data were processed

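Poly-A-enriched directional libraries were made from RNA extracted with the QIAGEN Plant RNeasy kit, per the labels' protocols. The authors deposited 1 table of raw counts per gene for the 39 Klebsormidium libraries, in 13 groups of 3. STAR 2.7 and DESeq2 are named in the submitters' processing notes; the genome build, annotation and counting settings are not given in the sources used here. Of the columns, 24 name their group but not which of its samples they are. The file ends with 1 blank line, and 74 tRNA and rRNA genes (at most 0.0395% of a library) were kept.

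Counts were tested with edgeR 4.0.16 (R 4.3.3): TMM scaling, filterByExpr, glmQLFit over all 39 libraries with group as the only term, glmQLFTest, and Benjamini-Hochberg adjustment over 12176 genes, called under 0.05. The square root of the common dispersion was 0.100. Medians over gene groups used group means plus a pseudocount of 0.1 CPM. Genes are named by ID where their log2 fold change was among the 2 largest rises or 2 largest falls of called genes whose libraries did not overlap and whose higher group averaged 10 CPM or more; genes given by rank were chosen after their values were seen. The members, gene groups and tests were chosen with earlier results of these data known. On simulated counts for the comparison of starved and control cultures (12089 genes), 92.5% of 67 genes changed 2-fold were recovered, and 12 of 186 calls were false. Only 200 genes were changed there, in the starved group alone, so these rates do not carry over to the 7107 calls in the real data. Alternatives were DESeq2 1.42.0, no filter, upper-quartile scaling, only the groups compared, and leaving out each library. Total counts per library were 18750994 to 33047350. The counts of the Marchantia libraries were not used.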

Additional observations from a re-analysis of the deposited data

How the results depend on the processing

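Of 188 values under alternative settings, 187 kept their direction and side of the threshold, or, for counts, stayed within 1.5 times. The exception was the number of genes lowered at least 4-fold from 10 CPM, 18 as reported, 28 without control library 1 and 15 to 28 over all single-library omissions. Genes raised at least 8-fold numbered 16 to 19 over those omissions. Fitted on the starved and control libraries alone, edgeR called 6032 genes, and 15 genes were raised at least 8-fold. The edgeR adjusted p of the genes named by ID was then 3.53e-05 to 7.60e-05. The split of calls was 3894 higher and 3213 lower (54.8% higher), 3557 and 3595 (49.7%) with DESeq2, and 4553 and 2665 (63.1%) with upper-quartile scaling, so which direction held more genes depends on the scaling. Of the 1254 genes changed at least 2-fold, 1135 to 1208 were still called without any 1 library, and 1 changed sign without the third starved library. The counts of strongly changed genes, the tests of nitrate and sucrose resupply, and the level classes by scaling were added after seeing the data. No paired analysis was possible because the phosphate-starved columns could be tied to their group but not to a sample, so they carry no replicate number from the labels; the number of a starved library here is only that of its column. Genes below 1 CPM have few counts, and depth limits calls there to large changes.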

Other observations

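The tRNA and rRNA genes of the table were too scarce in these poly-A libraries to describe: of 74, 7 were tested, and none passed edgeR's adjusted threshold between starved and control cultures, with log2 fold changes of -1.30 to -0.05 and a smallest adjusted p of 0.0576. The TMM scaling factors were 0.760 to 0.775 in the control libraries, 0.852 to 0.877 in the phosphate-starved ones and 1.03 to 1.08 in the phosphate-resupplied ones. Genes at 0 counts in all 39 libraries numbered 1396.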
